A study of Mus musculus with 15 samples.

Results

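The genes described here are 10 macrophage genes of the heart: Csf1r, Adgre1, Cd68, Mrc1, Cd163, Cd14, Arg1, Chil3, Wfdc17 and Lgals3. They were taken by symbol from a deposited table of 16042 genes, where Adgre1 stands as Emr1, Chil3 as Chi3l3 and Wfdc17 as OTTMUSG00000000971. All 10 were found. They were selected on earlier results of these same RPKM values (mapped reads divided by gene model length and by library size), so their levels and differences are given as a description. Where their place relative to a threshold is named, it comes from a fit over all genes and is no evidence about them.

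Polyadenylated RNA was sequenced from ventricles of 15 mice aged 20 to 22 weeks, with 3 mice in each of 5 groups. The induced mice carried MHCrtTA, a doxycycline-dependent activator driven by the heart's alpha-myosin heavy chain promoter, and TRECUGBP1, a tetracycline-responsive transgene for Flag-tagged human Celf1 (LYLQ isoform). Their food held doxycycline at 2 g/kg, given for 12, 24 or 72 hours or for 7 days. The control mice carried MHCrtTA alone and ate the same food for 72 hours, so only the 72 hour group is matched to them in time on doxycycline. Activator and doxycycline are shared by all groups, and the transgene is driven in heart muscle cells, not in macrophages. Ventricular tissue was taken whole, without the atria and with some of the apex cut away, so cell types are mixed. Celf1 itself (listed as Cugbp1) lay between 220 and 351 RPKM in the 12 hour mice, 295 and 423 in the 24 hour mice, 159 and 181 in the 72 hour mice and 29.5 and 37.9 in the 7 day mice, against 33.3 to 36.1 RPKM in the control hearts. At 7 days, when the macrophage genes stood highest, Celf1 thus overlapped its control range. These values belong to the mouse gene, so RNA of the human transgene was not separated from that of the mouse gene.

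Macrophages are phagocytes that live in the healthy heart and are also formed from blood monocytes that enter injured tissue. They depend on signals through the CSF1 receptor, take up dead cells and haemoglobin through scavenger receptors, and change their gene use with the signals they meet. In mouse, interleukin 4 and interleukin 13 are known to raise Arg1, Chil3 and Mrc1 (alternative activation), while interferon gamma and lipopolysaccharide are known to raise Nos2, Il12b and Cxcl9 (classical activation).

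The promoters of 4 genes are shown: Lgals3 and Chil3, which had the largest log2 differences of the 10 between 7 day and control hearts, Chil4, the near-identical neighbour of Chil3, and Wfdc17, the other gene above 100 RPKM at 7 days. Each is a RefSeq window of GRCm38.p6, running from 250 bases before to 50 bases after the annotated start. Such windows were at hand for 6 of the 10 genes, and Arg1, Csf1r, Adgre1 and Cd14 had none. Capitals mark matches, on either strand, to TATAAA, to GAGGAA (the core bound by PU.1, a master factor of macrophages), to TTCNNNGAA (STAT factors), TTGCNNAA (C/EBP factors), TGANTCA (AP-1) or GGNNTTTCC (NF-kappaB).
Chil3 (chr3:106167515-106167814, minus strand): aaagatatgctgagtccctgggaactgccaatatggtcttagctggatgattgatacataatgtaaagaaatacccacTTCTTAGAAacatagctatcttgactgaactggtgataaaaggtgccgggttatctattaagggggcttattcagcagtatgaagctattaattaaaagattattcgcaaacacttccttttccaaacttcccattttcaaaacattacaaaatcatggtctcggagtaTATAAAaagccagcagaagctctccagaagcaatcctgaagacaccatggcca
Chil4 (chr3:106219430-106219729, minus strand): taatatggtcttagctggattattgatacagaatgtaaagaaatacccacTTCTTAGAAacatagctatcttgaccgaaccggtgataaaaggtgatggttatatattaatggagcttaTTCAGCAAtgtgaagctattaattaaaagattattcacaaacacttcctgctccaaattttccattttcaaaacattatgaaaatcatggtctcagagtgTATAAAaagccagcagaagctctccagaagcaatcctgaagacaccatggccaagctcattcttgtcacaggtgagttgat
Wfdc17 (chr11:83703806-83704105, plus strand): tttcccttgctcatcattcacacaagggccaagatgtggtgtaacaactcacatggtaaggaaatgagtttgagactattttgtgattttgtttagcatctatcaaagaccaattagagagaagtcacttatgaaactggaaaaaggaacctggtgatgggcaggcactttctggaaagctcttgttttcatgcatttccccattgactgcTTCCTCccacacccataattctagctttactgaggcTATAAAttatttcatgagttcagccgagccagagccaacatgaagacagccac
Lgals3 (chr14:47373610-47373909, plus strand): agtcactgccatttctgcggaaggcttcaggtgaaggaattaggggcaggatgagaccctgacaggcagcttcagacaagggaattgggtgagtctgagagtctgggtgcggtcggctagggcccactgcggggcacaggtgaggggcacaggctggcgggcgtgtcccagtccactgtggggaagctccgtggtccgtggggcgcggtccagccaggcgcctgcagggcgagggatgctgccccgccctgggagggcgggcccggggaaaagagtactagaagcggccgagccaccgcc
The Chil3 and Chil4 windows were identical at 251 of 273 aligned positions, or 91.9%, and both hold a match to TATAAA and a match to TTCNNNGAA. Chil4 also holds a match to TTGCNNAA. Wfdc17 holds TATAAA and GAGGAA (on the minus strand), and the Lgals3 window holds none of the 6 motifs. Of 32851 windows of this length, TATAAA occurred in 13.6%, GAGGAA in 28.3%, TTCNNNGAA in 8.3%, TTGCNNAA in 10.8%, TGANTCA in 7.81% and GGNNTTTCC in 5.82%. Among the windows not printed, Mrc1 holds GAGGAA 3 times and GGNNTTTCC once, Cd68 holds GAGGAA 2 times, TGANTCA 2 times and TTGCNNAA once, and Cd163 holds none. No match overlapped another. These matches are letters in a window and were not shown to be bound.

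All 10 macrophage genes stood far above control at 7 days, in every 7 day mouse, while at 12, 24 and 72 hours their log2 differences lay between -0.56 and 0.69. Summed over the 10 genes, the level was 29.5 to 39.2 RPKM at 12 hours, 32.6 to 49.8 at 24 hours, 35.4 to 50.9 at 72 hours and 580 to 757 at 7 days, against 35.7 to 42.7 in the control hearts. At 7 days the mean levels ran from Lgals3 (151 ± 48.7 RPKM) and Wfdc17 (142 ± 25.2) over Cd68 (80.5 ± 13.1), Mrc1 (79.3 ± 14.7), Chil3 (53.3 ± 14.7), Csf1r (45.6 ± 9.59), Arg1 (42.1 ± 25.1), Cd163 (35.1 ± 12.2) and Cd14 (26.5 ± 10.3) to Adgre1 (12.0 ± 5.22; SD, n = 3 mice each). Every pair of neighbours in that order had overlapping mice, except Wfdc17 and Cd68. The order in the control hearts was another, with Csf1r (9.60 ± 1.30 RPKM) and Wfdc17 (9.36 ± 0.61) highest and Arg1 and Chil3 near 0. In a bulk tissue more macrophages and more RNA of these genes per macrophage cannot be told apart.

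**Figure D1:**
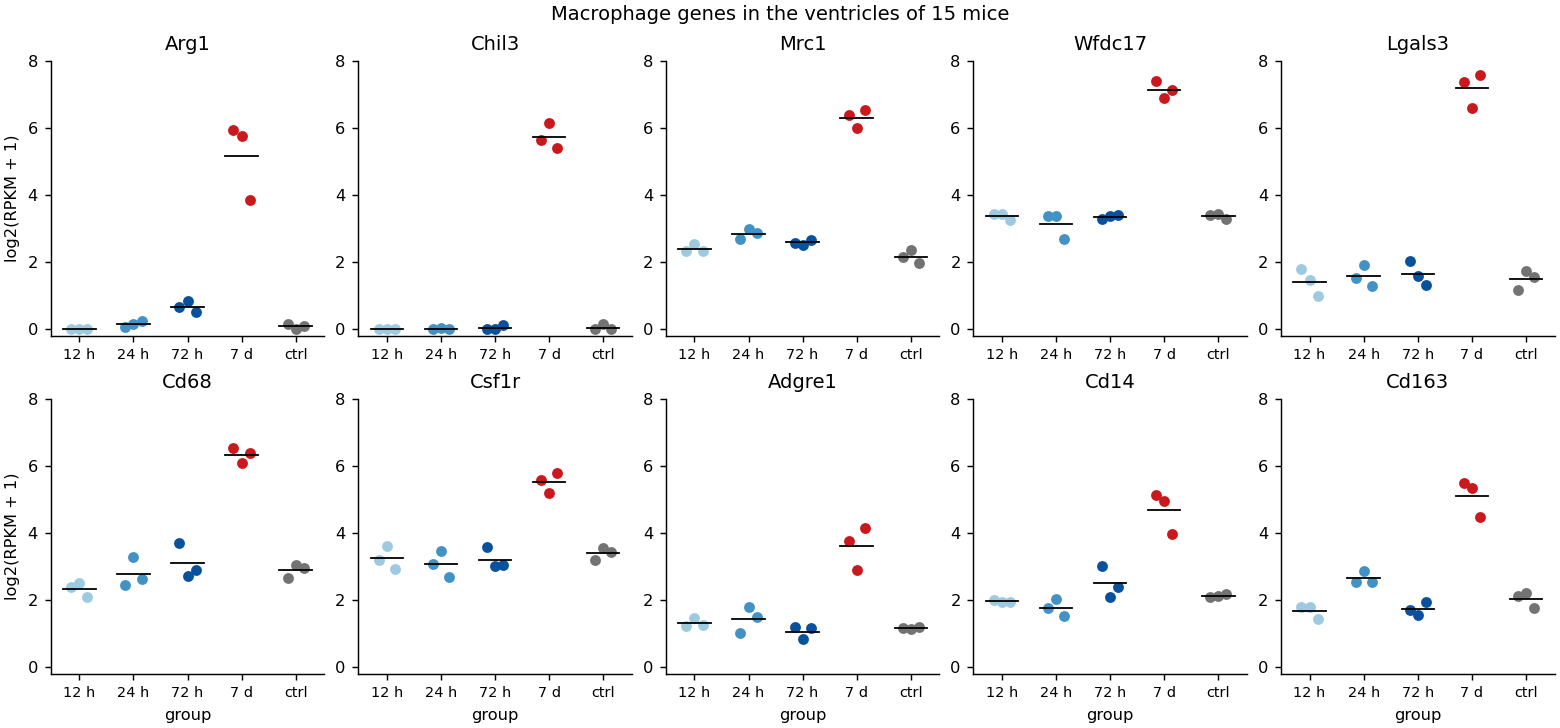
Level of each of the 10 macrophage genes in each of the 15 mice, as log2(RPKM + 1), with groups from left to right 12 h, 24 h, 72 h, 7 d and control (ctrl). Points are mice and bars are group means; in every panel the 3 mice at 7 d lie above all others.

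Differences below are on the log2(RPKM + 1) scale, with the moderated standard error from a limma fit of all 15 mice, and a threshold of 0.05 on the adjusted p. This scale understates the change of low genes. At 7 days all 10 genes were past the threshold and higher than control, where 26.7% of the 10868 tested genes were higher and 28.2% lower. Their differences ran from 2.12 to 5.71 with a median of 3.61, beside a median of -0.033 over all tested genes. Against 72 hours all 10 were past it as well, by 2.20 to 5.69 with a median of 3.55, where 22.6% of all tested genes were higher and 22.3% lower. Since the genes were selected on values of these same mice, nothing is read from these counts or from those at any other time. Arg1 and Chil3 passed the expression limit (a mean of at least 1 RPKM over all mice) only through the 7 day group, with means of 0.192 and 0.0179 RPKM over the other mice.

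**Figure D2:**
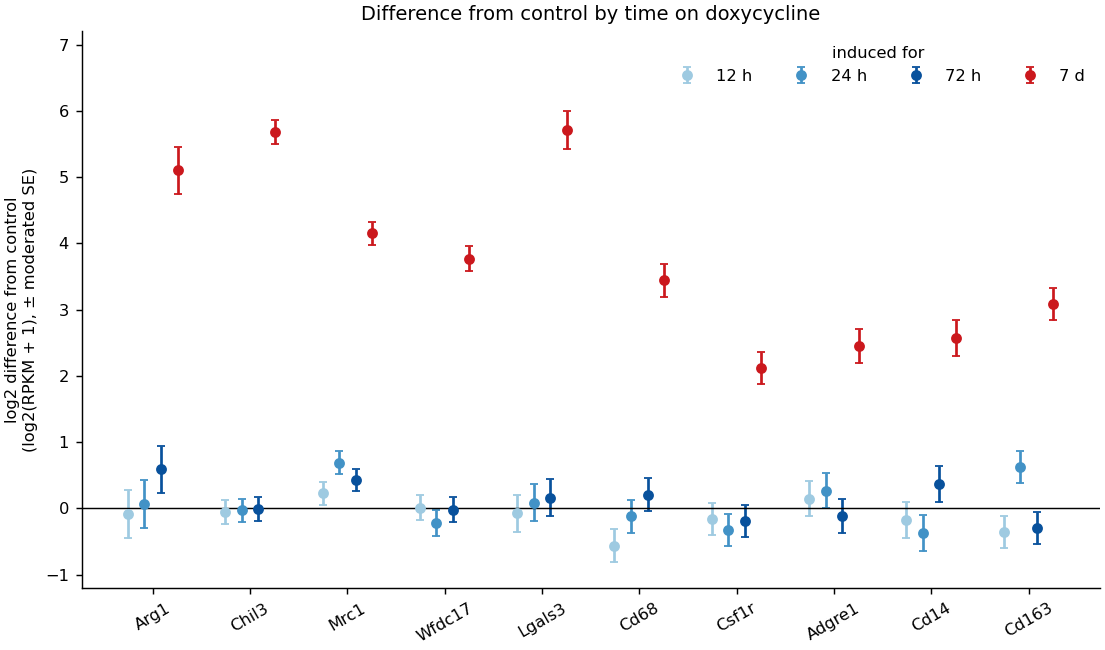
Difference from control for each macrophage gene at 12 h, 24 h, 72 h and 7 d, in log2(RPKM + 1) units; points are differences of group means and bars the moderated standard error. Differences at 7 d run from 2.12 (Csf1r) to 5.71 (Lgals3), while those at the earlier times lie between -0.56 and 0.69.

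Csf1r encodes the receptor kinase for the macrophage growth factor CSF1. It had 46.5, 35.7 and 54.8 RPKM at 7 days, against 8.18, 10.7 and 9.87 RPKM in the control hearts. No 7 day mouse overlapped a control, and the ratio of the means was 4.76, the lowest of the genes with a ratio. The log2 difference was 2.12 ± 0.24. An exon of Csf1r overlaps Hmgxb3 on the other strand, and whether reads were counted by strand is not given in the sources used here. Hmgxb3, listed under an older symbol (A630042L21Rik), had 4.6, 4.62 and 5.07 RPKM at 7 days, against 6.18, 7.61 and 6.69 RPKM in the control hearts.

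Adgre1, an adhesion receptor used as a surface marker of mouse macrophages, was the lowest of the 10 at 7 days. Its RPKM was 12.7, 6.51 and 16.9 at 7 days and 1.26, 1.21 and 1.27 in the control hearts, a difference of 2.45 ± 0.26. Cd68, a glycoprotein of endosomes and lysosomes, had 92.6, 66.6 and 82.4 RPKM at 7 days, against 5.37, 7.31 and 6.77 RPKM in the control hearts (3.44 ± 0.25). At 12 hours Cd68 stood below all controls, with 4.28, 4.67 and 3.29 RPKM, and its difference of -0.56 ± 0.25 was not past the threshold. The median of all tested genes was itself at -0.30 at 12 hours, and the Cd68 difference relative to it was -0.26. With the column code as a term the 12 hour difference of Cd68 turned to 0.11.

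Mrc1, the mannose receptor that takes up glycoproteins, had 82.7, 63.3 and 92.0 RPKM at 7 days, against 3.43, 4.11 and 2.96 RPKM in the control hearts, and its difference was 4.15 ± 0.17. It stood above control at earlier times as well. The 24 hour mice had 5.46, 6.99 and 6.30 RPKM and the 72 hour mice 4.98, 4.74 and 5.33, all above every control. The differences were 0.69 ± 0.17 at 24 hours, past the threshold, and 0.43 ± 0.17 at 72 hours, not past it. At 24 hours 1 of the 10 genes was past the threshold and higher, where 5.38% of all tested genes were higher and 10.6% lower. That background rests on single mice: without control mouse A3280, 20 genes in all were higher and 19 lower.

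Cd163, the scavenger receptor for haptoglobin-bound haemoglobin, had 44.3, 39.7 and 21.3 RPKM at 7 days, against 3.31, 3.66 and 2.37 RPKM in the control hearts (3.08 ± 0.24). Its course before that was not steady. At 12 hours it had 2.43, 2.46 and 1.71 RPKM, at 24 hours 4.77, 6.34 and 4.85, and at 72 hours 2.25, 1.92 and 2.85. No 24 hour mouse overlapped a 12 hour, a 72 hour or a control mouse. The log2 difference was 0.98 ± 0.24 in the 24 hour against the 12 hour mice and -0.92 ± 0.24 in the 72 hour against the 24 hour mice, and 24 hours against control gave 0.62 ± 0.24, not past the threshold. The columns of the 24 hour mice carry codes found in no other group, so for Cd163 and Mrc1 alike that time cannot be told apart from what the codes stand for. Mouse A3277 was the highest of the 24 hour group for Mrc1, Cd163, Cd68 (8.67 RPKM), Csf1r, Adgre1, Cd14 and Lgals3. The same mouse had 45.5 RPKM of H2-Aa, an antigen-presenting molecule, where the other 24 hour mice had 13.5 and 16 and the controls 16.4 to 23.0.

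Cd14, the co-receptor through which lipopolysaccharide reaches Tlr4, had 34.3, 30.3 and 14.8 RPKM at 7 days, against 3.25, 3.37 and 3.52 RPKM in the control hearts (2.57 ± 0.27). At 72 hours mouse A3278 had 7.07 RPKM while the other 72 hour mice had 3.27 and 4.23. The same mouse was the highest of the 72 hour group for Cd68 (11.9 RPKM), Csf1r (10.9) and Lgals3 (3.12), and it is the only induced mouse whose code is that of the controls. Its H2-Aa level was 47.5 RPKM, where the other 72 hour mice had 18.0 and 16.7; the part of this in the values was not tested. The 12 hour mice (2.82 to 3.03 RPKM) and 24 hour mice (1.87 to 3.06 RPKM) lay below all controls for Cd14. Neither difference, -0.17 ± 0.27 at 12 hours and -0.37 ± 0.27 at 24 hours, was past the threshold. Relative to the median of all tested genes they were 0.13 at 12 hours and -0.18 at 24 hours, and the 12 hour one changed sign in 4 of 26 alternatives, with 0.59 when the column code was a term.

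Arg1, the enzyme that splits arginine into urea and ornithine, was listed at 0 in all 12 hour mice. It had 0.04, 0.11 and 0.18 RPKM in the 24 hour mice, 0.57, 0.80 and 0.425 in the 72 hour mice and 60.1, 52.8 and 13.5 in the 7 day mice, against 0.11, 0 and 0.07 RPKM in the control hearts. By the estimated depth these stand for about 18, 73 and 27 reads at 72 hours and 6920, 3455 and 650 at 7 days, against 4, 0 and 2 in the control hearts. All 72 hour mice thus lay above all controls, and the 7 day mean was 70.4 times the 72 hour mean. The difference from control was 0.59 ± 0.36 at 72 hours, not past the threshold, and 5.10 ± 0.36 at 7 days. With a pseudocount of 0.1 in place of 1 the 72 hour difference was 2.16 and the 7 day one 7.84. None of the 10 was past the threshold at 72 hours (1 at an unadjusted p under 0.05), where 6.39% of all tested genes were higher and 5.22% lower. None was at 12 hours either (1, lower, at an unadjusted p under 0.05), where 0.524% were higher and 12.7% lower.

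Chil3 encodes Ym1, a secreted chitinase-like protein of mouse macrophages and neutrophils. It had 49.4, 69.6 and 41.0 RPKM at 7 days, against 0, 0.10 and 0 RPKM in the control hearts. It was listed at 0 in all 12 hour mice and reached at most 0.03 RPKM at 24 hours and 0.085 at 72 hours. The log2 difference at 7 days was 5.68 ± 0.18, a value that rests on the pseudocount because the controls held 0 to 4 reads. Chil4 (listed as Chi3l4), its neighbour on chromosome 3, had 14.9, 18.4 and 12.2 RPKM at 7 days and was listed at 0 in all control hearts. The annotated transcripts of the pair are 94.3% identical over 1540 aligned bases and their gene models overlap, so how reads were split between them is uncertain.

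Wfdc17, a small secreted protein of the whey acidic protein family, had 169, 118 and 139 RPKM at 7 days, against 9.58, 9.83 and 8.67 RPKM in the control hearts (3.77 ± 0.19). The other times overlapped control, with 8.64 to 9.91 RPKM at 12 hours, 5.48 to 9.39 at 24 hours and 8.78 to 9.53 at 72 hours. Lgals3, or galectin-3, a lectin that binds galactosides, had 166, 96.8 and 191 RPKM at 7 days, against 1.24, 2.35 and 1.91 RPKM in the control hearts. Its mean was 82.5 times that of the controls, the highest ratio where the controls allow one, with a difference of 5.71 ± 0.28. Lgals3 is also known from fibroblasts and other cells, so it marks macrophages less strictly than Csf1r or Adgre1.

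In mm9 (NCBIM37, GENCODE vM1) Arg1 lies on chromosome 10 from 24635014 to 24647276, Chil3 on chromosome 3 from 105950472 to 106022425, Mrc1 on chromosome 2 from 14151041 to 14253684, Wfdc17 on chromosome 11 from 83517493 to 83519770 and Lgals3 on chromosome 14 from 47987426 to 48005835. Cd68 lies on chromosome 11 from 69477715 to 69479655, Adgre1 on chromosome 17 from 57498109 to 57622952 and Cd163 on chromosome 6 from 124254669 to 124280545. The annotated Chil3 interval contains all of Chil4 (106004408 to 106022425) and ends at the same base, so it is wider than Chil3 alone. RPKM covers the whole gene model, so isoforms were not separated.

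The 3 mice at 7 days did not share a single order over the 10 genes. Mouse A3269 was the lowest for Arg1, Chil3, Cd14 and Cd163, and the highest for Mrc1, Lgals3, Csf1r and Adgre1. Mouse A3283 was the lowest for Mrc1, Wfdc17, Lgals3, Cd68, Csf1r and Adgre1. The highest mouse exceeded the lowest by 4.46-fold for Arg1, 2.59-fold for Adgre1, 2.31-fold for Cd14 and 2.08-fold for Cd163, and by 1.39-fold for Cd68. Mice A3345 and A3283 were sequenced in 2 columns each, which differed by a median of 0.20 log2 units over the 10 genes in either mouse, and by up to 0.82 (Wfdc17 in A3283). With 3 mice no such order can be tested.

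**Figure D3:**
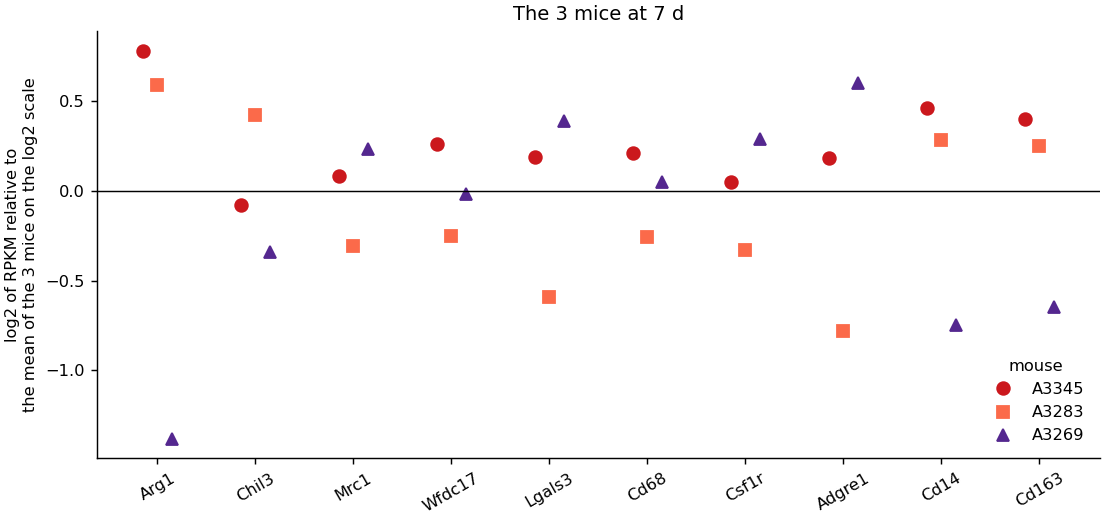
The 3 mice at 7 d for each macrophage gene, as log2 of RPKM relative to the mean of the 3 on the log2 scale. Mouse A3269 (triangles) lies lowest for Arg1 (-1.38), Cd14 (-0.75) and Cd163 (-0.65) and highest for Adgre1 (0.60).

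The columns of the table fall under 9 codes, of unexplained meaning. Mouse A3278 alone has the code of the controls, so no 7 day column can be set against a control of the same code. In 4 codes 7 day columns stand beside 12 hour or 72 hour columns. There every macrophage gene had its 7 day columns above the others. Since the genes were selected on these same values, nothing is read from this. The codes are not independent either, because mice A3345 and A3283 each supply 7 day columns to more than a single code. The part of the codes in the values was not tested. The lowest 7 day column was 3.39 to 90.2 times the highest other column, leaving out Chil3 and the comparisons in which Arg1 was near 0. Depth, estimated from the step between low values, was 16.5 to 52.2 M reads per column.

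Genes outside the 10 were tested in the same fit, in lists named for a role. Beside every list count at 7 days against control below, 26.7% of all tested genes were higher and 28.2% lower. Of 27 further macrophage identity genes in the table, 23 passed the expression limit and all 23 rose at 7 days (limma, adjusted p under 0.05), with a median difference of 2.31, against 26.7% of all tested genes. For 4 of the 23 the control mean was under 1 RPKM, so that they passed the limit through induced mice. With no such limit 24 of 27 were higher and 0 lower, where 22.5% of 16041 genes were higher and 19.7% lower. Ctss, the lysosomal protease cathepsin S, had 240, 201 and 265 RPKM at 7 days, against 6.50, 8.25 and 6.11 RPKM in the control hearts (4.89 ± 0.25, adjusted p = 2.25e-10). Mpeg1, the pore-forming perforin-2 of phagocytes, rose by 4.43 ± 0.26 (adjusted p = 6.96e-10) and Itgam (integrin alpha M) by 3.88 ± 0.19 (adjusted p = 1.58e-10). F13a1, the factor XIII A subunit made by monocytes and macrophages, rose by 3.67 ± 0.20 (adjusted p = 4.62e-10).

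At the earlier times no identity gene was called higher by limma. At 12 hours 0 were higher and 0 lower (0 higher and 3 lower at an unadjusted p under 0.05), where the median of all tested genes was at -0.30. At 24 hours 0 were higher and 0 lower (3 higher and 0 lower at an unadjusted p under 0.05), and at 72 hours 0 and 0 (0 and 0 unadjusted). The genes left untested at 7 days were Cx3cr1 (0.28, 0.425 and 1.63 RPKM at 7 days, against 0.36, 0.65 and 0.52 in the control hearts), Timd4 (0.425, 0.405 and 0.82, against 0.63, 1.45 and 0.63), Cd5l (0.21, 0.065 and 0, against 0 in all) and Siglec1 (3.25, 1.90 and 3.44, against 0.41, 0.65 and 0.45). Cx3cr1 and Timd4, which are known from resident heart macrophages, thus overlapped their control ranges. The resident markers Lyve1 (1.72 ± 0.36, adjusted p = 0.000701) and Folr2 (1.05 ± 0.28, adjusted p = 0.00461), named after their values were seen, rose at 7 days.

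Genes of monocytes and newly recruited macrophages were higher at 7 days in 21 of 22 tested (median 3.34), and 9 of the 22 had control means under 1 RPKM. Spp1, the secreted phosphoprotein osteopontin, had 153, 79.8 and 83.1 RPKM at 7 days, against 0.17, 0.62 and 0.13 RPKM in the control hearts (6.30 ± 0.27, adjusted p = 2.8e-11). The chemokine Ccl6 rose by 5.90 ± 0.31 (adjusted p = 2.54e-10), with 381, 305 and 216 RPKM at 7 days against 5.35, 3.95 and 2.77 in the control hearts. The scavenger receptor Msr1 rose by 4.48 ± 0.21 (adjusted p = 9.86e-11). The lectin receptor Clec4d had 32.2, 31.9 and 22.1 RPKM at 7 days, against 0, 0.12 and 0 RPKM in the control hearts. Cd9 was the gene that did not pass (0.35 ± 0.21, adjusted p = 0.163).

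At 72 hours 4 of these 22 genes rose, against 6.39% of all tested genes. Ccl2, the main chemokine that draws monocytes, had 12.8, 12.7 and 15.8 RPKM at 72 hours and 40.3, 58.5 and 23.8 at 7 days, against 1.10, 0.85 and 1.19 RPKM in the control hearts. Its difference was 2.85 ± 0.30 at 72 hours (adjusted p = 1.71e-05) and 4.27 ± 0.30 at 7 days. The related chemokine Ccl7 rose by 2.67 ± 0.46 at 72 hours (adjusted p = 0.00171), the matrix protein Thbs1 by 2.06 ± 0.26 (adjusted p = 8.3e-05) and Msr1 by 0.83 ± 0.21 (adjusted p = 0.0202). Ccl2, Ccl7 and Thbs1 kept their call in 27 of 27 alternatives, while Msr1 lost it in 6 of 26, among them without A3281, A3250 or A3259. At 24 hours Ccl6 (1.16 ± 0.31) and Msr1 (0.68 ± 0.21) were called higher and Cd9 (-0.76 ± 0.21) lower, but Msr1 lost its call in 13 of 24 alternatives and Ccl6 in 5 of 25, without A3277, A3262, A3259 or A3280 among them.

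**Figure D4:**
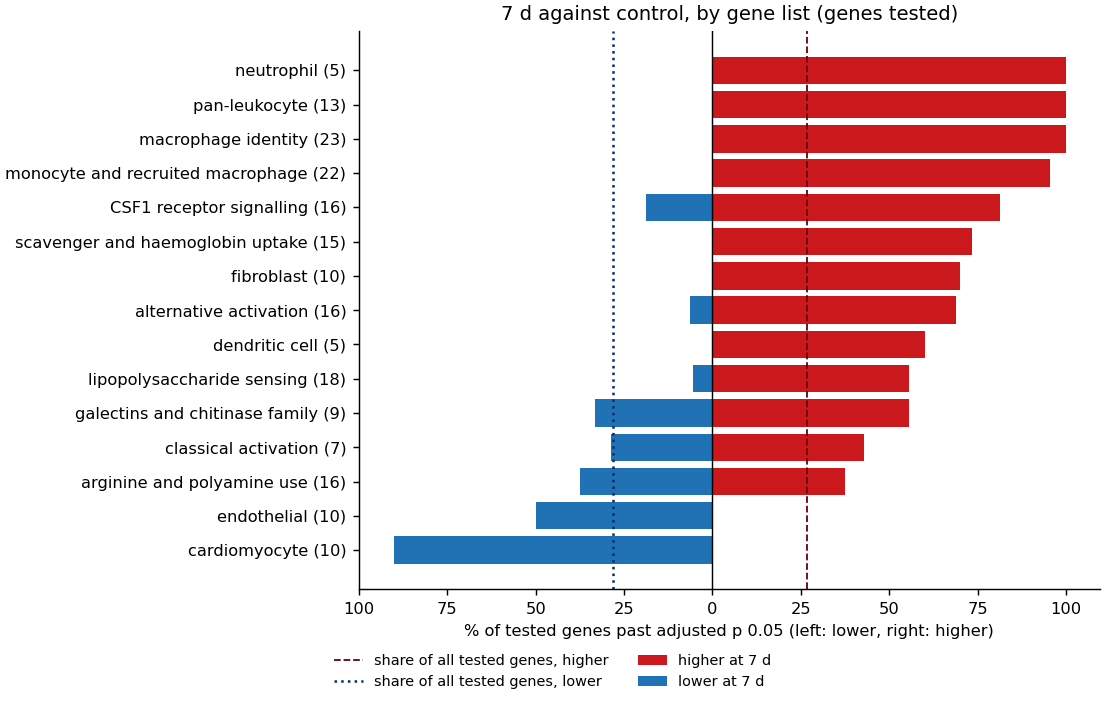
Share of tested genes in each list that were past the threshold at 7 d against control, higher to the right and lower to the left; the number tested stands behind each name, and lists with fewer than 5 tested genes are left out. Dashed and dotted lines mark the shares of all tested genes, 26.7% higher and 28.2% lower.

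Of the alternative activation genes other than the 10, 25 were in the table and 16 were tested. At 7 days 11 rose and 1 fell (median 1.32), where 26.7% of all tested genes were higher and 28.2% lower. Il4ra, the receptor chain for interleukin 4 and interleukin 13, had 31.2, 42.7 and 21.7 RPKM at 7 days, against 4.08, 5.43 and 5.44 RPKM in the control hearts (2.42 ± 0.26, adjusted p = 7.9e-07). The lectin Mgl1 rose by 3.01 ± 0.34 (adjusted p = 1.6e-06). Il1rn, the interleukin 1 receptor antagonist, had 7.67, 3.42 and 2.83 RPKM at 7 days and was listed at 0 in all control hearts. The gene that fell was Retnla (Fizz1), a secreted protein usually grouped with Arg1 and Chil3. It had 0.62, 1.23 and 0 RPKM at 7 days, against 2.58, 7.52 and 2.44 RPKM in the control hearts (-1.62 ± 0.43, adjusted p = 0.00433), and with the column code as a term the adjusted p was 0.166. Stat6, Klf4, Pparg and Slc7a2 did not pass the threshold at 7 days. At 72 hours 2 of the 16 tested genes were higher and 0 lower, where 6.39% of all tested genes were higher and 5.22% lower. These were Il1rn, whose call was lost in 17 of 25 alternatives, and Egr2, lost in 7 of 25. Summed over the 25 alternative genes, the level was 152 to 239 RPKM at 72 hours and 437 to 630 at 7 days. The control hearts had 188 to 199 RPKM.

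Of the classical activation genes 24 were in the table, and only 7 reached the expression limit. At 7 days 3 rose and 2 fell (median -0.10), where 26.7% of all tested genes were higher and 28.2% lower. Irf5 (2.17 ± 0.22, adjusted p = 5.08e-07), Socs3 (2.29 ± 0.36, adjusted p = 5.1e-05) and the costimulatory ligand Cd86 (1.61 ± 0.21, adjusted p = 5.95e-06) rose. Irf1, an interferon-responsive transcription factor, fell by 0.69 ± 0.24 (adjusted p = 0.0238) and Nos2, the inducible nitric oxide synthase that competes with Arg1 for arginine, by 0.74 ± 0.25 (adjusted p = 0.0203). Nos2 had 1.21, 1.63 and 0.64 RPKM at 7 days, against 2.52, 1.91 and 3.30 RPKM in the control hearts. The falls rest on few mice. Without control mouse A3280 neither was past the threshold, and without 1 of A3283, A3269 or A3250 only 1 was. With the column code as a term neither was, and Nos2 then stood at 0.05. Below the limit, Il12b was listed at 0 in all 7 day and control hearts, Tnf reached at most 0.45 RPKM at 7 days and 0.40 in the control hearts, and Ccl3 had 6.62, 2.91 and 0.51 RPKM at 7 days, against 0.22, 0 and 0. Ptgs2 had 1.53, 2.04 and 1.97 RPKM at 7 days, against 0.36, 0.28 and 0.25 in the control hearts. Cd80 had 1.43, 1.19 and 1.46 RPKM, against 0.25, 0.22 and 0.3. At 72 hours 1 of the 7 tested genes was higher and 0 lower, where 6.39% of all tested genes were higher and 5.22% lower. Summed over the 24 classical genes, the level was 48.8 to 76 RPKM at 72 hours and 53.1 to 64.4 at 7 days. The control hearts had 32.7 to 36.3 RPKM. With no expression limit the classical counts at 7 days were 10 higher and 2 lower of 24, and the alternative counts 15 and 1 of 25. The difference between these lists was not tested.

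**Figure D5:**
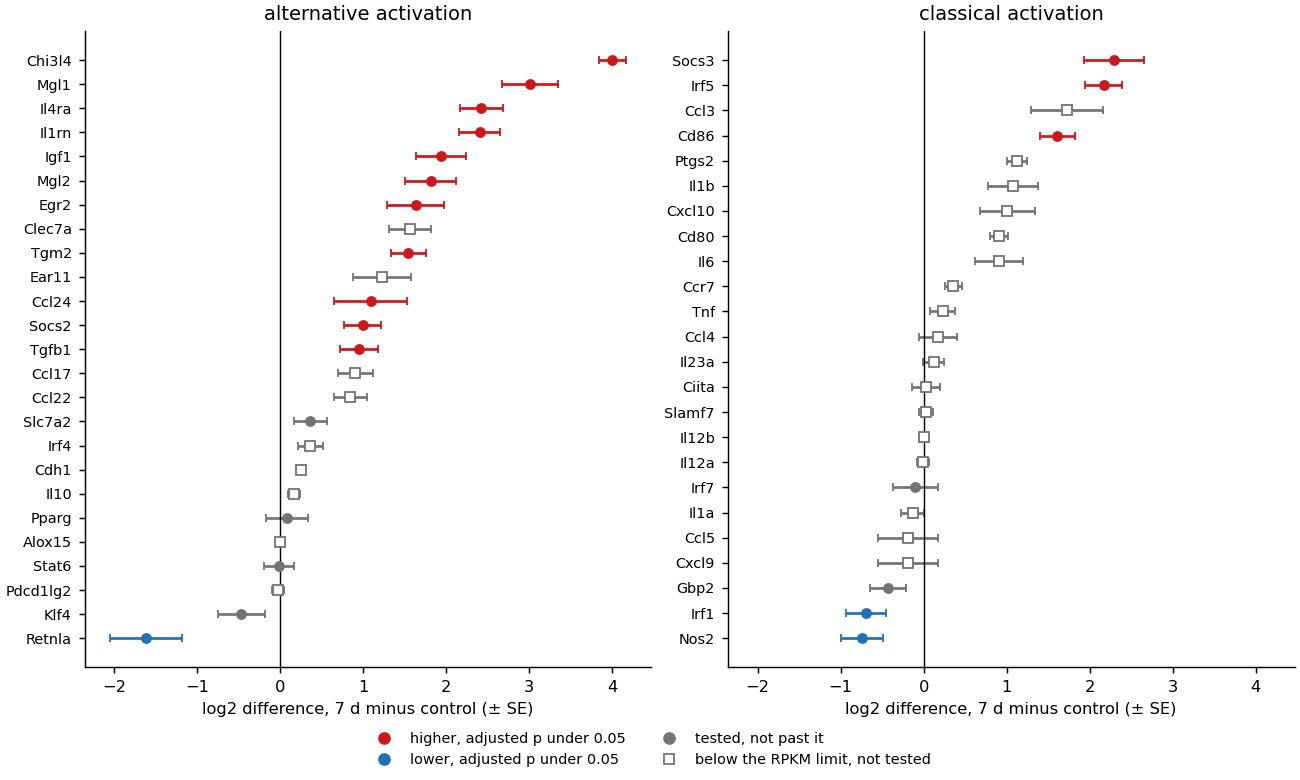
Difference between 7 d and control for genes of alternative (left) and classical (right) activation, the 10 macrophage genes left out, in log2(RPKM + 1) units with the moderated standard error. Filled points were tested and coloured where past the threshold, and open squares were below the expression limit; Retnla, at -1.62, is the lowest of the left panel.

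Around the receptors, 13 of 16 tested genes in a list named CSF1 receptor signalling rose at 7 days and 3 fell. The list also holds Csf2ra, Csf2rb and Csf3r, receptor genes of other colony-stimulating factors. The count is thus not one of the Csf1r pathway alone. The ligand Csf1 had 23.1, 17.5 and 17.1 RPKM at 7 days, against 10.4, 5.86 and 6 RPKM in the control hearts (1.29 ± 0.23, adjusted p = 0.000195, named after its values were seen). The adaptor Tyrobp rose by 3.10 ± 0.25, the shared cytokine receptor chain Csf2rb by 3.22 ± 0.20, the phosphatase Inpp5d by 2.37 ± 0.19 and the kinase Fgr by 2.27 ± 0.22. Cebpb, Mitf and Grb2 fell, and without any 1 of A3283, A3269, A3259 or A3280 only 1 of these 3 calls was left.

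Around Cd14, 10 of 18 tested genes in a list named lipopolysaccharide sensing rose at 7 days and 1 fell. The list is broader than Cd14 and Tlr4, with other toll-like receptors (Tlr2, Tlr6), Ly86 and shared signalling genes. Tlr4 itself had 6.52, 6.32 and 9.07 RPKM at 7 days, against 2.63, 2.15 and 1.8 RPKM in the control hearts. Ly96, also in the list, had 4.79, 5.67 and 1.93 RPKM, against 1.05, 1.36 and 0.42. Tlr6 rose by 1.70 ± 0.18 (adjusted p = 6.15e-07), Tlr2 by 1.4 ± 0.18 (adjusted p = 7.12e-06), the lipopolysaccharide binding protein Lbp by 2.25 ± 0.29 (adjusted p = 5.27e-06) and Ly86 by 1.86 ± 0.26 (adjusted p = 1.57e-05). Irak1 was the gene that fell (-0.53 ± 0.19, adjusted p = 0.0262), a call lost in 5 of 26 alternatives, among them without A3269, A3259 or A3280. The NF-kappaB subunits Nfkb1 and Rela did not pass (0.02 ± 0.17 and -0.18 ± 0.26).

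Around Cd163, 11 of 15 tested genes of scavenging and haemoglobin use rose at 7 days and 0 fell (limma; 0 also at an unadjusted p under 0.05). Hmox1, which breaks down haem, had 50.9, 40.2 and 36.5 RPKM at 72 hours and 180, 237 and 87.3 at 7 days, against 8.67, 8.19 and 7.00 RPKM in the control hearts. It rose by 2.27 ± 0.31 at 72 hours (adjusted p = 0.000191) and by 4.13 ± 0.31 at 7 days (adjusted p = 1.48e-08). Hp, the haptoglobin that Cd163 takes up with its haemoglobin, rose by 3.38 ± 0.30 (adjusted p = 8.85e-08). Marco, a scavenger receptor of activated macrophages, had 13.8, 16.3 and 2.30 RPKM at 7 days and was listed at 0 in all control hearts. As for Arg1, Cd14 and Cd163, its lowest 7 day mouse was A3269.

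Around Arg1, 6 of 16 tested genes of arginine and polyamine use were higher at 7 days and 6 lower (median 0.01), beside 26.7% higher and 28.2% lower over all tested genes. With the column code as a term 1 was lower. Sat1, which acetylates polyamines for export, rose by 2.55 ± 0.22 (adjusted p = 5.3e-08), Gatm by 2.16 ± 0.24 (adjusted p = 1.48e-06) and Azin1, an inhibitor of antizyme, by 1.80 ± 0.25 (adjusted p = 1.34e-05), while the antizyme Oaz1 fell by 1.29 ± 0.20 (adjusted p = 4.81e-05). Ornithine made by arginase is used by Odc1, which had 52.3, 60.4 and 48.5 RPKM at 7 days, against 33.8, 31.1 and 29.9 RPKM in the control hearts (0.74 ± 0.20, adjusted p = 0.00538), and by Oat, which fell by 1 ± 0.20 (adjusted p = 0.000428). Arg2, the other arginase, stayed at 0.275 to 0.38 RPKM at 7 days and was at most 0.29 in the control hearts. Odc1, Oat and Arg2 were named after their values were seen.

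Among relatives of Lgals3, Chil3 and Wfdc17, 5 of 9 tested genes rose at 7 days and 3 fell, where 26.7% of all tested genes were higher and 28.2% lower. Lgals1, with 674, 422 and 459 RPKM at 7 days against 205, 196 and 247 RPKM in the control hearts, rose by 1.23 ± 0.24 (adjusted p = 0.000351). The chitinase-like Chi3l1 rose by 2.45 ± 0.25 (adjusted p = 4.84e-07). Lgals4 fell by 1.15 ± 0.21 (adjusted p = 0.000236), and so did Chid1 and Wfdc1. Chia and Chit1, the active chitinases, were at or under 0.08 RPKM in 7 day and control hearts.

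Markers of other cells moved with the macrophage genes, and their part in the values above was not tested. The summed pan-leukocyte markers were 361 to 392 RPKM at 7 days, against 61 to 65.6 in the control hearts, and 13 of 13 rose. Those with the smallest p were the integrin beta chain Itgb2 (3.26 ± 0.20), Cd53 (3.68 ± 0.28), the hyaluronan receptor Cd44 (3.28 ± 0.26) and Laptm5 (2.84 ± 0.29). Of the neutrophil markers 13 were in the table and 5 were tested, all 5 higher, 4 of them with control means under 1 RPKM. The sum of the 13 was 80.8 to 177 RPKM at 7 days, against 3.03 to 4.54 in the control hearts. With no expression limit 9 of the 13 were higher. Most of the sum was Lcn2 (137, 83.3 and 54.6 RPKM at 7 days), which other cells also make. The calcium-binding S100a8, abundant in neutrophils and monocytes, had 10.7, 10.4 and 5.31 RPKM at 7 days, against 0, 0 and 0.45 in the control hearts (3.06 ± 0.35, a call lost with the column code as a term). Its partner S100a9 had 13, 7.88 and 10.5 RPKM at 7 days, against 0.28, 0.61 and 1.32 in the control hearts (2.74 ± 0.35). Csf3r, the receptor for G-CSF, rose by 1.65 ± 0.22 and the protease Mmp9 by 1.62 ± 0.30. Below the limit Retnlg, Mmp8 and the chemokine receptor Cxcr2 (listed as Il8rb) were above all controls in every 7 day mouse, while the granule genes Mpo, Ela2, Camp, Ltf and Ngp were at or under 0.41 RPKM in all 7 day mice. Of 18 lymphocyte markers only Cd3e was tested, and it rose (3.18 ± 0.27, adjusted p = 4.81e-08), while its partners Cd3d and Cd3g were at or under 0.51 RPKM at 7 days. Below the limit Il7r had 2.86, 1.42 and 3.97 RPKM at 7 days, against 0.24, 0.11 and 0.12 in the control hearts. Of the 18 markers 4 were above all controls in every 7 day mouse and 0 below. With no limit 3 of the 18 were higher and 0 lower. Mast cell and eosinophil markers summed to 2.12 to 2.92 RPKM at 7 days, against 1.42 to 2.22 in the control hearts; Kit was tested and did not pass (0.43 ± 0.18, adjusted p = 0.0502), and Mcpt4, with 0.035, 0.145 and 0.26 RPKM at 7 days, overlapped control. Cpa3, Prg2 and Il5ra were at or under 0.055 RPKM at 7 days. Siglecf (listed as Siglec5) had 0.255, 0.115 and 0.13 RPKM at 7 days, against 0.05, 0 and 0 in the control hearts. Ccr3 had 0.385, 0.055 and 0.4 RPKM, against 0, 0 and 0.09, and thus overlapped control. Of the 10 markers 2 were above all controls in every 7 day mouse (Kit and Siglecf) and 1 below (Cma1). With no limit limma called 3 of these markers higher and 1 lower, against 0 and 0 with it (1 and 0 at an unadjusted p under 0.05). Of 5 tested dendritic cell markers 3 rose (H2-Aa, H2-Ab1 and H2-DMb2, of which H2-Ab1 lost its call without A3269 or A3250), and with no limit 6 of 11 were higher. Itgax, which macrophages also express, had 1.67, 1.15 and 2.11 RPKM at 7 days, against 0.11, 0.15 and 0.22 in the control hearts. Flt3 (0.295, 0.22 and 0.56 RPKM at 7 days) and Ccr7 (0.33, 0.31 and 0.56) were likewise above all controls in every 7 day mouse, as were 7 of the 11 markers. The defining Xcr1 and Clec9a were at most 0.89 RPKM at 7 days and overlapped control.

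Fibroblast markers summed to 2360 to 3120 RPKM at 7 days, against 536 to 630 in the control hearts, and 7 of 10 rose, Postn by 4.72 ± 0.29 (adjusted p = 1.45e-09) and the collagen genes Col3a1 by 3.83 ± 0.31, Col1a1 by 3.44 ± 0.33 and Col1a2 by 3.01 ± 0.28. Cardiomyocyte markers summed to 12600 to 15300 RPKM at 7 days, against 57000 to 58900 in the control hearts, and 9 of 10 fell, Myh6 by 3.07 ± 0.21 (adjusted p = 6.2e-09), Myl3 by 2.89 ± 0.25, Myl2 by 2.85 ± 0.23 and Tnni3 by 2.77 ± 0.25. Endothelial markers summed to 225 to 289 RPKM at 7 days, against 340 to 353 in the control hearts, and 5 of 10 fell, among them Tie1 (-1.01 ± 0.16), Kdr (-0.84 ± 0.17), Prox1 (-0.85 ± 0.19) and Tek (-0.56 ± 0.17). With the column code as a term 0 of 10 were called lower. RPKM is a share of all reads, and the part of the fall in muscle transcripts in the other values was not tested.

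Over the 15 mice, the genes whose standardized log2(RPKM + 1) values lay closest to those of a macrophage gene were found by the root mean square (RMS) difference, in standard deviations, as a description. Nearest to Mrc1 were Ms4a6c (0.105), Tlr13 (0.117), Ccr1 (0.128), Tlr7 (0.135) and Ctss (0.153). Nearest to Arg1 were Ear2 (0.136), Galnt6 (0.148), Serpina3m (0.15) and Inhbb (0.181). Nearest to Csf1r were the collagen gene Col1a2 (0.149), Nckap1l (0.166), Col5a1 (0.168), Col1a1 (0.170) and Grn (0.178). Among the 10 genes themselves the closest were Wfdc17 and Lgals3 (0.15) and Chil3 and Wfdc17 (0.154), and the most distant Adgre1 and Cd14 (0.554). The measure gives most weight to the step at 7 days.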

How the data were processed

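The authors deposited RPKM for 16042 genes in 20 columns. The submitters' processing notes name TopHat, Bowtie and the mm9 build, while versions, counting tool and strand are not given in the sources here. Both columns of each of 5 mice were averaged, groups were taken from the labels, and mouse numbers pair no mice across groups. The labels name separate mice. Values were transformed to log2(RPKM + 1), 10868 genes with a mean of at least 1 RPKM over 15 mice were kept, and 1 limma fit (3.58.1, R 4.3.3, trended eBayes, 10 residual and 7.12 prior degrees of freedom) covered all 5 groups, with Benjamini-Hochberg adjustment within a comparison and a threshold of 0.05. The fit was tested on simulated data. Read counts were not used, and the depth of each column was estimated from 100 olfactory receptor genes; on 60 simulated columns 60 estimates lay within 5%. The simulation used the same gene lengths as the estimate, so it cannot show whether those match the gene models behind the deposited RPKM. In control mouse A3259 the estimate rested on 11 values. Reads behind a value are rounded from that depth and from GENCODE vM1 exon lengths, so they are approximate.

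The 10 genes, the 17 companion lists (302 symbols, 282 in the table) and the alternatives were chosen with earlier results of these data known. From each list the named genes were the 4 past the threshold with the smallest p at 72 hours or 7 days, or the 2 most abundant where none passed; other companion genes were named after their values were seen. The alternatives comprised 24 settings, 15 of them leaving out a mouse, and 3 more chosen after seeing the data (a mean of at least 1 RPKM in the controls, the column code as a term, a GC correction). Rows without a symbol (72) named no gene of interest here. A few genes are not reported here, and those among them that stood in a list were left out of its counts after the values were seen.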

Additional observations from a re-analysis of the deposited data

Results flagged for a closer look

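Some genes stood on opposite sides of the controls at 2 times, with no mouse overlapping a control at either, and the difference between the times was not tested. The comparisons share the control mice. Cd68 was at 3.44 at 7 days and at -0.56 at 12 hours (log2 difference from control), and the 12 hour value turned to 0.11 with the column code as a term. Cd14 was at 2.57 at 7 days, at -0.17 at 12 hours and at -0.37 at 24 hours. Its 12 hour value ran from -0.21 to 0.59 and changed sign in 4 of 26 alternatives, and relative to the median of all tested genes it was 0.13 at 12 hours and -0.18 at 24 hours. Among the companion genes past the threshold at both times, Tgm2 was at 1.54 at 7 days and -0.92 at 12 hours, Lrp1 at 1.49 at 7 days and -0.70 at 12 hours, and Mrc2 at 1.18 at 7 days and -0.73 at 12 hours. Ftl1 was at 1.57 at 7 days and -0.70 at 24 hours, and Tgfb1 at 0.95 at 7 days and -0.73 at 24 hours. None of these early calls held in all alternatives: Tgm2 lost it in 7 of 26 alternatives, Lrp1 in 9 of 26, Mrc2 in 14 of 26 (with a value of 0.06 under 1 of them), Ftl1 in 7 of 25 and Tgfb1 in 12 of 25. Leaving out A3259 or A3280, both controls, ended each of the 5 calls, and A3276 ended those at 12 hours. The median of all tested genes was at -0.30 at 12 hours and -0.19 at 24 hours.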

How the results depend on the processing

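The differences of the 10 macrophage genes between 7 days and control kept their sign in all 25 or 26 alternatives run for each. Many of these alternatives could not change a difference of group means, such as leaving out a 12, 24 or 72 hour mouse or changing the expression limit. Since the genes were selected on these same values, nothing is read from the kept signs. The lowest values of the 10 genes ran from 1.98 for Csf1r to 5.51 for Lgals3, and the highest was 8.69 for Chil3 with a pseudocount of 0.1. The count of macrophage identity genes higher at 7 days was 22 to 23 when each mouse was left out in turn, and 19 with a mean of at least 1 RPKM in the controls, since fewer genes were tested. At 24 hours that count was 2 with median-of-ratios scaling, 1 with quantile normalization and 1 with the GC correction, where it was 0 as reported. At 72 hours it was 2 in the columns with the code of the controls and 1 with the column code as a term, against 0. The cause was not tested. Nos2 at 7 days turned to 0.05 (adjusted p = 0.932) with the column code as a term, a fit of 16 columns without the 24 hour group. Of 1496 values for 59 companion genes at 7 days, 1472 kept their side of the threshold and direction, 11 lost the call, 12 gained it (all Kit) and 1 reversed. At 72 hours, of 1555 values 1410 kept theirs, 38 lost the call, 15 gained it and 92, not past the threshold as reported, changed sign. With the limit set in the controls and fewer genes tested, 12 monocyte genes against 21, 6 of lipopolysaccharide sensing against 10, 3 galectins and relatives against 5 and 1 neutrophil gene against 5 were higher at 7 days. With a mean of at least 5 RPKM over all mice, again fewer genes tested, the counts were 3 against 13 for CSF1 receptor signalling, 7 against 11 for alternative activation, 1 against 3 for classical activation (1 against 2 lower), 1 against 10 for lipopolysaccharide sensing, 3 against 6 for arginine use and 8 against 13 for pan-leukocyte genes. With no limit, 6 dendritic cell markers against 3, 9 neutrophil markers against 5 3 lymphocyte markers against 1 and 3 mast cell and eosinophil markers against 0 were higher, and 1 mast cell and eosinophil marker against 0 was lower. Quantile normalization called 2 cardiomyocyte genes higher, against 0. With the column code as a term, lower calls at 7 days were 1069 against 3061 over all genes, 1 against 6 for arginine use, 0 against 3 for CSF1 receptor signalling and 0 against 5 for endothelial genes. In that fit 5 genes in all were higher and 4 lower at 12 hours, and 322 higher and 54 lower at 72 hours. Calls at the early times over all genes rest on single mice and on scaling. At 12 hours 57 were higher and 1375 lower, with 11 to 139 and 126 to 2211 when a mouse was left out, and 72 and 157 with median-of-ratios scaling, 51 and 143 with quantile normalization. At 24 hours 585 were higher and 1151 lower, with 20 to 791 and 19 to 1791 when a mouse was left out, and 908 and 753 with median-of-ratios scaling, 797 and 805 with quantile normalization. At 72 hours 695 were higher and 567 lower, with 355 to 989 and 120 to 1501 when a mouse was left out. No paired analysis was possible because the groups share no mouse numbers. With 3 mice a group, and 0 to 4 reads behind the control values of Arg1 and Chil3, folds of these genes against control are not fixed by the data.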
